A study of Drosophila melanogaster with 10 samples.

Results

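The comparison described here sets the translated mRNAs of fly DA neurons that express human PARIS WT against those of the same neurons without it, gene group by gene group and in both directions. All genes with a FlyBase identifier in the count table of these groups were taken, 17716 of the 17747 in the deposited tables of the series, and entries without a gene name were dropped. Of these, 9697 passed edgeR's filter on low counts and were tested. PARIS (ZNF746) is a zinc finger repressor with a KRAB domain that accumulates when parkin fails, and it is studied as a cause of mitochondrial and neuronal defects in models of Parkinson's disease. In TRAP, a GFP-tagged ribosomal protein made only in GAL4 cells is pulled down, so that mRNAs on tagged ribosomes are recovered. Pull-down from whole heads also carries some RNA of other cells, and levels relative to a library total do not distinguish fewer cells of a type from less RNA per cell.

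TRAP control flies carried dTH-GAL4 and UAS-GFP::RpL10A, labelled dTH+TRAP(GFP-RpL10a). PARIS WT flies carried the same pair of transgenes and human PARIS WT from a pUAST insertion, labelled dTH+TRAP(hPARIS wild type), and both groups have w1118XdTH-Gal4 as their strain. GAL4 was not titrated between groups, so TRAP control has 1 UAS transgene fewer. Male and female heads were pooled, 500 for each TRAP control library and 1500 for each PARIS WT library, with 3 biological samples per group. According to the methods, males and females were collected in equal numbers so that the sex ratio matched between groups. The labels give an age of day 30, whereas the methods place collection at 2 days after eclosion. Library input and genotype therefore cannot be told apart in this comparison.

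The TRAP control libraries held 21737687, 21625198 and 11173874 counts on genes and the PARIS WT libraries 24832896, 8819116 and 24095535. All levels below are CPM, counts scaled to a common library total with TMM factors, with SD over n = 3, and all fold changes are PARIS WT relative to TRAP control. Of the DA neuron markers, the vesicular monoamine transporter Vmat was at 215, 224 and 264 CPM in TRAP control and at 167, 187 and 189 CPM in PARIS WT (log2 fold change −0.37, SE 0.12, adjusted p = 0.282, edgeR quasi-likelihood). Ddc, which makes dopamine, had means of 127 ± 21.0 and 153 ± 10.3 CPM, and Pu, an enzyme of cofactor synthesis, 76.6 ± 15.8 and 82.8 ± 9.37 CPM. The tyrosine hydroxylase gene ple was at 0 in TRAP control replicate 2 and PARIS WT replicate 1 and between 35.2 and 49.1 CPM in the other 4 libraries. The transporter gene DAT had 1552, 0 and 0 counts in TRAP control and 0, 0 and 1488 in PARIS WT and was not tested. In another deposited table, the same PARIS WT libraries held 1241, 718 and 1488 counts of DAT. Such isolated zeros were common: 286 tested genes had 0 counts in 1 TRAP control library and 100 or more in the other 2, and 212 genes did so in PARIS WT. The mitochondrial transcript mt:ATPase6 belonged to this class, with 0 counts in PARIS WT replicate 2 while it was the most abundant gene in each of the other libraries.

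In total, 59 genes fell and 10 rose in PARIS WT at an adjusted p under 0.05, which is 0.608% and 0.103% of the genes tested (edgeR quasi-likelihood F-test, Benjamini-Hochberg, n = 3 per group). The lower genes included CG4836, which had the smallest p, 7 sperm genes, the mucin Mur18B, the oenocyte enzyme Cyp4g1 and 2 ribosomal protein genes without counts in PARIS WT. The higher genes were 2 immune peptides (BomBc1 and BomBc2), the dopamine-conjugating enzyme e, the cuticle protein Acp1, the detoxifying enzyme GstE1, the protease inhibitor Cys, and CG31904, CG8736, CG5346 and CG42488. Of the 59 lower genes, 23 had at most 3 counts in every PARIS WT library, and these are reported as at least N-fold lower, with 3 counts in each PARIS WT library as the floor. The other 36 had log2 fold changes between −7.86 and −1.10, with a median of −3.99. Dropping single libraries left 17, 11 and 16 of the 59 lower genes called when TRAP control replicates 1, 2 and 3 were omitted, and 30, 28 and 22 when the PARIS WT replicates were. The 11 genes called in all 6 such fits were CG17376, CG31468, CG33340, CG34168, CG4691, CG4836, Cyp4g1, Mur18B, Octalpha2R, RpL24 and RpL26. Octalpha2R, RpL24 and RpL26 had 0 counts in every PARIS WT library, which omitting 1 library cannot probe. For Octalpha2R and RpL24, another deposited table held counts for the same libraries. None of the 10 higher genes was called in all 6 fits, and at most 1 of the 10 was called in any (adjusted p from 0.0440 to 0.177). At an unadjusted p under 0.05, 7.4% of the genes tested were lower and 4.23% higher.

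**Figure D1:**
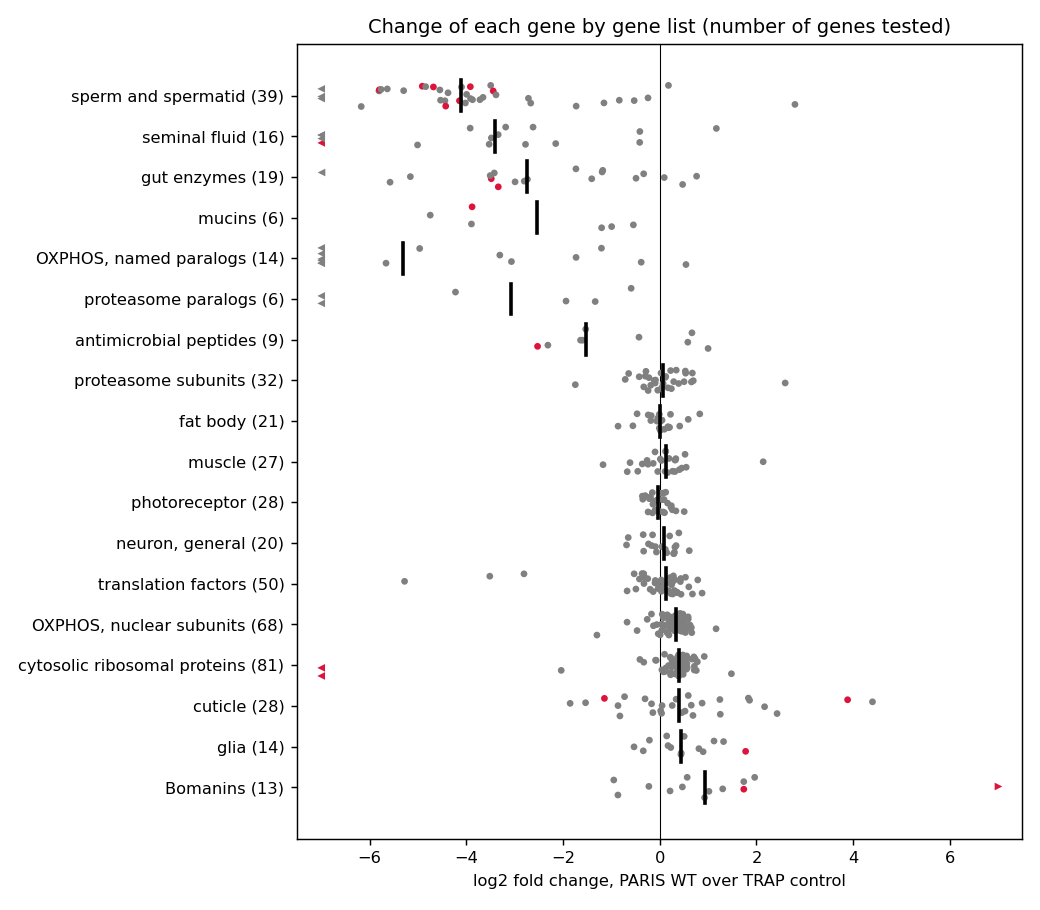
Log2 fold change of each tested gene (horizontal axis) in 18 gene lists (rows, with the number of genes tested in parentheses). Red points passed an adjusted p under 0.05, arrowheads lie beyond 7 log2 units, and black bars are medians, from −5.31 for the OXPHOS paralogs to 0.93 for the Bomanins. Of the 14 OXPHOS paralogs, 7 had at most 3 counts in every PARIS WT library.

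Genes of sperm and spermatids were the group with the most genes called. The list held 53 genes of late spermatogenesis, of which 39 were tested, 37 of them with negative values. Their median log2 fold change was −4.10, against −0.02 over all genes tested, and 7 fell while none rose. At most 3 counts in every PARIS WT library were found for 3 of the 39, which passed the filter only through TRAP control. In 30 of the 39, every PARIS WT library lay below every TRAP control library, which held for 12.3% of all genes tested. S-Lap1 (FBgn0035915, 3L from 8617235 to 8619474 on release 6), a leucyl aminopeptidase abundant in sperm, was at 138, 137 and 131 CPM in TRAP control and at 3.68, 8.50 and 6.77 CPM in PARIS WT. Its log2 fold change was −4.43 (SE 0.33, adjusted p = 0.00563, edgeR), and its relative S-Lap4 fell from 47.4 ± 2.38 to 1.83 ± 0.77 CPM. Mst87F and Mst84Dc, both of a family of small structural proteins of the sperm tail, fell from 19.1 ± 3.23 to 1.26 ± 0.0728 CPM and from 9.61 ± 1.29 to 0.880 ± 0.265 CPM. The sperm mitochondrial protein gene loopin-1 fell 30.5-fold in the mean, ocn 17.8-fold and Mst98Cb 56.3-fold. Of the 2 genes with positive values, the more abundant was bol, an RNA-binding protein of meiosis that is also made in neurons, with 249 ± 47.7 CPM in TRAP control and 282 ± 41.5 CPM in PARIS WT.

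The summed level of the list was 887, 950 and 836 CPM in TRAP control and 364, 302 and 301 CPM in PARIS WT, 2.76-fold apart in the mean. Without bol, which was left out of the sum after its level was seen, it was 606, 678 and 642 CPM in TRAP control and 34.4, 42.3 and 45.2 CPM in PARIS WT, so that the groups were 15.8-fold apart with no overlap. In the scaling of the table that also holds the single whole brain library, the same sum was 789 CPM in TRAP control and 305 CPM in whole brain, without a replicate for the latter. Transcripts of the male soma also had negative values in all 3 genes tested (median −0.36), but the groups overlapped, with a summed level of 179, 32.2 and 47.4 CPM in TRAP control and 52.6, 32.9 and 19.2 CPM in PARIS WT, and none was called. On the Y chromosome 1 of 113 genes was tested. The yolk protein list, made in females, summed to 11364 ± 3206 CPM and 12961 ± 457 CPM. The part of testis RNA or of the sex ratio in the sperm gene result was not tested. Of the 7 sperm genes, 0 were called when TRAP control replicate 2 was omitted (lowest adjusted p = 0.0509), 3 when TRAP control replicate 3 was, 6 when PARIS WT replicate 2 was, and 4 in each of the other such fits.

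Named paralogs of respiratory chain and proteasome subunits, many of them known as testis forms in flies, went the same way in value. Of 14 OXPHOS paralogs tested, 13 had negative values with a median log2 fold change of −5.31, or of −3.30 with the 7 genes at most at 3 counts in PARIS WT set to their bound. These 7 passed the filter on low counts only through TRAP control, which fixed their negative sign. Over all 9697 genes tested, 287 were at this floor in PARIS WT. None passed the adjusted test. The cytochrome c paralog Cyt-c-d had 4.27, 3.72 and 5.70 CPM in TRAP control and 0 counts in every PARIS WT library, at least 25.6-fold lower (adjusted p = 0.0819, edgeR). The proteasome paralog Prosbeta5R1 was likewise at 0 in PARIS WT and at least 21.0-fold lower (adjusted p = 0.101, edgeR), and its list of 6 tested genes had a median of −3.08, or −2.27 at the bound. Of these 6, 3 were at the floor and passed the filter only through TRAP control. The 32 subunits of the general proteasome had a median of 0.06. Reads shared between such paralogs and their abundant relatives could alter these low counts.

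Of the seminal fluid and gut lists, 3 genes fell and none rose. Of 16 seminal fluid genes tested, 15 had negative values (median log2 fold change −3.41, or −3.26 at the bound), and 1 fell. At most 3 counts in every PARIS WT library were found for 5 of the 16. Those 5 passed the filter only through TRAP control, which fixed their sign. The summed level of the seminal fluid list overlapped between groups, at 162, 69.0 and 79.3 CPM in TRAP control and 25.2, 22.1 and 107.9 CPM in PARIS WT. The gene that fell was Ebp, a protein of the ejaculatory bulb, with 18.1, 10.9 and 20.9 CPM in TRAP control and 0 counts in PARIS WT, at least 93.4-fold lower (adjusted p = 0.0270, edgeR). Its call was lost without any 1 TRAP control library (adjusted p from 0.112 to 0.172) and without PARIS WT replicate 3 (0.0568). Sfp60F, a seminal peptide gene, was at 3.08 ± 0.680 CPM and 0 (at least 17.3-fold, adjusted p = 0.106), and the peptide Dup99B at 5.67 ± 0.675 and 0.482 ± 0.221 CPM (adjusted p = 0.109). Of 19 genes of gut enzymes tested, 2 fell and the median was −2.74, or −2.53 at the bound. Among the 19, 3 were at that floor and passed the filter only through TRAP control. The digestive proteases yip7 and alphaTry fell from 21.0 ± 6.82 to 2.07 ± 0.301 CPM and from 27.2 ± 8.86 to 2.41 ± 1.12 CPM (adjusted p = 0.0241 and 0.0458, edgeR), and both calls were lost with any 1 library left out (adjusted p from 0.0726 to 0.177). The related Jon65Aiii and Jon99Cii were at 10.9 and 7.06 CPM in TRAP control and at 0.955 and 0.185 CPM in PARIS WT (adjusted p = 0.0732 and 0.121). In whole brain, scaled together with TRAP control, Ebp stood at 172 against 20.4 CPM, and alphaTry at 136 against 33.5 CPM, the opposite order to the sperm genes.

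The 6 mucin genes tested, which encode heavily glycosylated secreted proteins, all had negative values (median log2 fold change −2.54). Mur18B (FBgn0030999, X from 19213254 to 19214938) was at 163, 194 and 242 CPM in TRAP control and at 10.9, 13.2 and 16.6 CPM in PARIS WT. It fell by 3.88 on the log2 scale (SE 0.24, adjusted p = 0.00292, edgeR) and was 245 CPM in TRAP control against 29.6 CPM in whole brain in their common scaling. Muc11A was at 45.4, 36.2 and 45.4 CPM in TRAP control and at 3.20, 5.13 and 0.288 CPM in PARIS WT, without a call (adjusted p = 0.125). The groups did not overlap for either gene.

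Among the genes of oenocytes, the cells that make cuticular hydrocarbons, Cyp4g1 fell and the others diverged. Cyp4g1 (FBgn0010019, X from 467057 to 469335), the P450 enzyme of the last step to hydrocarbons, was at 68.3, 75.1 and 64.7 CPM in TRAP control and at 7.04, 5.67 and 4.51 CPM in PARIS WT (log2 fold change −3.59, SE 0.22, adjusted p = 0.00292, edgeR). In whole brain it stood at 2151 CPM against 85.3 CPM in TRAP control in the same scaling. The fatty acid synthase gene FASN2 was at 37.6 ± 9.77 CPM and 4.95 ± 2.81 CPM (adjusted p = 0.0689), whereas the desaturase Desat1 was at 581, 598 and 439 CPM and at 703, 708 and 671 CPM (adjusted p = 0.385). Another P450 gene, Cyp6g1, known for insecticide resistance, fell from 76.6, 63.7 and 79.7 CPM to 31.6, 35.7 and 35.6 CPM (log2 fold change −1.10, adjusted p = 0.0403). Its call was lost with any 1 library left out (adjusted p from 0.104 to 0.172). The other 64 of 66 P450 genes tested were not called, and the median of the list was −0.01.

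Genes without a list fell as well, and CG4836 had the smallest p of all genes tested. It was at 136, 147 and 157 CPM in TRAP control and at 7.73, 8.58 and 9.94 CPM in PARIS WT, and in whole brain at 4.36 CPM against 180 CPM for TRAP control in their common scaling. CG31468, which has Tes37 among its RefSeq synonyms, was at 28.1, 26.9 and 28.4 CPM against 0.587, 0.689 and 0.720 CPM. CG33340 fell from 59.9 ± 11.2 to 1.51 ± 0.400 CPM and CG4691 from 43.7 ± 4.16 to 2.47 ± 0.352 CPM. CG34168 and CG17376 fell 14.3-fold and 11.2-fold in the mean, and CG2127 83.7-fold. The long noncoding RNAs lncRNA:CR9284, lncRNA:CR32652 and lncRNA:CR42767 also fell, the first from 29.2 ± 5.12 to 0.662 ± 0.358 CPM and the other two to 0 counts, at least 86.7-fold and 65.1-fold lower. None of these 3 was called when a TRAP control library was omitted (adjusted p from 0.0536 to 0.191).

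A separate class was genes that had counts in every TRAP control library and none in PARIS WT. At least 20 counts in each TRAP control library and at most 3 in each PARIS WT library were found for 168 genes, 141 of them with exactly 0, whereas the reverse was found for 12 genes. For 5 of the 168, the same PARIS WT libraries held at least 20 counts each in the deposited table of PARIS C571A and PARIS WT. These were RpL24, with 0 counts in the table used here and 9237, 5694 and 11257 there, the octopamine receptor gene Octalpha2R (1198, 759 and 1343), the vesicle traffic gene Rab2 (520, 549 and 892), b, which makes beta-alanine (716, 638 and 899), and CG2247 (192, 62 and 212). The adjusted p of these 5 genes in the table used here was between 0.00134 and 0.0241, and their change therefore depends on the table. Unscaled, the counts of b there were above every TRAP control count (272, 358 and 367). Those of RpL24 overlapped TRAP control (6402, 7561 and 5875), as did those of Octalpha2R, Rab2 and CG2247. Others of the 168 had counts there in only some PARIS WT libraries, such as tant (150, 0 and 183) and CG4408 (42, 0 and 104). Of the 12 genes of the reverse kind, CG13026 had 73, 50 and 97 counts in PARIS WT here and 0 in each library there. RpL26, with 456, 525 and 588 CPM in TRAP control, and Hsp60C, a mitochondrial chaperonin gene with 19.3 ± 5.72 CPM, were at 0 in PARIS WT in both tables, at least 2938-fold and 108-fold lower. Both tables hold the same PARIS WT libraries, so these zeros are not independent observations. The part of read assignment in them was not tested. The call of Hsp60C was lost without any 1 TRAP control library (adjusted p from 0.104 to 0.170). On the other side, the cell death gene rpr had 0 counts in TRAP control and 70, 26 and 29 in PARIS WT, without a call (adjusted p = 0.117).

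**Figure D2:**
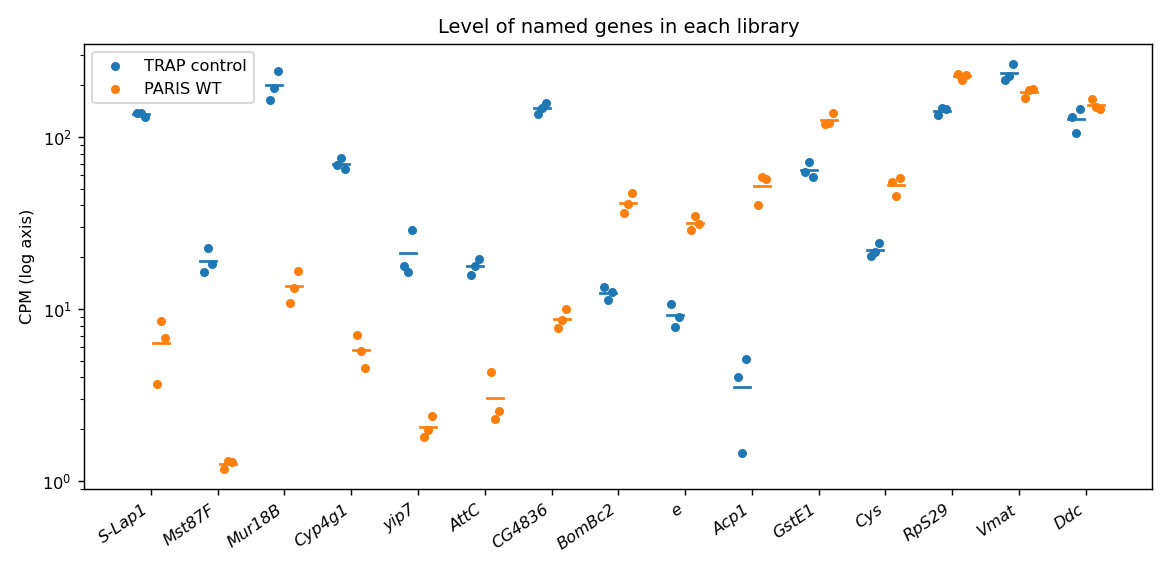
CPM (log axis) of 15 named genes in each library, with blue points for the 3 TRAP control and orange points for the 3 PARIS WT libraries and bars for group means. S-Lap1, Mst87F, Mur18B, Cyp4g1, yip7, AttC and CG4836 are lower in every PARIS WT library, BomBc2, e, Acp1, GstE1 and Cys higher, and the 2 groups touch for Ddc, whose highest TRAP control library lies at 146 CPM.

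Humoral immunity genes moved in both directions. Bomanins are short secreted peptides that act downstream of Toll in the fly's defence. The list of them used here also held IM33, which is not a Bomanin by name. Of its 13 genes tested, 2 rose, 10 had positive values and the median log2 fold change was 0.93. BomBc2 (FBgn0034331, 2R from 18384824 to 18385589) was at 13.5, 11.2 and 12.5 CPM in TRAP control and at 36.2, 40.6 and 47.3 CPM in PARIS WT (log2 fold change 1.74, SE 0.19, adjusted p = 0.0241, edgeR). BomBc1, its neighbour, had 0 counts in every TRAP control library and 12.2, 9.65 and 16.1 CPM in PARIS WT, at least 72.8-fold higher (adjusted p = 0.0282). Both calls were lost with any 1 library left out (adjusted p from 0.0569 to 0.136). BomS2, from the same cluster, was at 3.17 ± 0.638 and 10.6 ± 1.14 CPM (adjusted p = 0.1145), and BomS3 and IM33 at 14.3 and 9.13 CPM against 19.8 and 10.6 CPM, whereas BomBc3, on another chromosome, was at 8.22 ± 1.28 and 4.25 ± 0.764 CPM (adjusted p = 0.403). Summed over this list, IM33 included, the level was 74.9, 65.1 and 68.3 CPM in TRAP control and 124, 113 and 143 CPM in PARIS WT. Of 9 antimicrobial peptides tested, 6 had negative and 3 positive values, and their sum, mostly BaraA1, was 218, 195 and 190 CPM against 118, 128 and 143 CPM. BaraA1 had 0 counts in whole brain, against 181 CPM in TRAP control in their common scaling. The antibacterial AttC fell from 17.7 ± 1.92 to 3.05 ± 1.10 CPM (log2 fold change −2.53, SE 0.36, adjusted p = 0.0493), a call lost with any 1 library left out (adjusted p from 0.0569 to 0.188). The antifungal Drs was at 6.89 ± 1.49 and 2.38 ± 1.27 CPM (adjusted p = 0.349) and BaraA1, the most abundant of the 9 tested, at 147 ± 3.11 and 109 ± 10.6 CPM (adjusted p = 0.168). Hemocyte genes, with 11 tested, had a median of 0.11 and fat body genes, with 21 tested, one of 0.01, and none of either was called.

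Of the 10 higher genes, 5 had another of them within 20000 bases, a description made after their values were seen. GstE1 starts at 18398393 on 2R, near the Bomanin cluster that begins with BomT1 at 18381393 and holds BomBc1 and BomBc2. GstE1, a glutathione S-transferase, rose from 62.2, 71.2 and 58.4 CPM to 119, 121 and 137 CPM (log2 fold change 0.98, SE 0.13, adjusted p = 0.0421, edgeR), while GstE2 and GstE3, the next genes on the chromosome, were at 11.6 and 25.8 CPM in TRAP control and at 12.9 and 22.4 CPM in PARIS WT. CG31904 and Acp1 lie side by side on 2L, at 7734415 to 7738809 and at 7740562 to 7741537. CG31904 was at 2.40 ± 1.19 CPM against 30.9 ± 3.47 CPM (adjusted p = 0.0273), and Acp1, a protein of the adult cuticle, at 4.01, 1.45 and 5.11 CPM against 40.1, 58.7 and 56.9 CPM (adjusted p = 0.0395). Of the 59 lower genes, 7 had another lower gene within that distance. No such share was taken over all genes tested, so these numbers do not show clustering. No gene called in the other direction lay that near to any of the 12.

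The glial list showed small positive values with 1 gene called. Glia take up and inactivate transmitters, and of 14 genes tested 11 had positive values, with a median log2 fold change of 0.44. The enzyme e (ebony, FBgn0000527), which links beta-alanine to dopamine and histamine in glia and in the epidermis, was at 10.7, 7.87 and 9.03 CPM in TRAP control and at 28.7, 34.7 and 31.2 CPM in PARIS WT. It rose by a log2 fold change of 1.78 (SE 0.21, adjusted p = 0.0282, edgeR), and the call was lost with any 1 library left out (adjusted p from 0.0730 to 0.134). In 6 of the 14, all PARIS WT libraries lay above all TRAP control libraries, against 9.6% of all genes tested. Among them, the astrocyte gene alrm was at 9.26, 7.24 and 5.84 CPM and at 17.5, 18.2 and 20.2 CPM (adjusted p = 0.111) and the GABA transporter gene Gat at 9.01, 9.03 and 12.7 CPM and at 18.5, 20.3 and 18.3 CPM (adjusted p = 0.171). Gs2, a glutamine synthetase and the most abundant of the list, was at 634 ± 25.0 and 743 ± 69.6 CPM (adjusted p = 0.518). Their summed level was 898, 922 and 948 CPM in TRAP control and 1059, 1110 and 1170 CPM in PARIS WT, and the part of glial RNA in the change of e was not tested.

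Cuticle and secreted proteins included calls both ways. Of 28 cuticle genes tested, 1 rose (Acp1), 1 fell and the median was 0.40. Cpr49Ae fell from 58.6 ± 6.44 to 26.5 ± 2.36 CPM (log2 fold change −1.14, SE 0.15, adjusted p = 0.0427, edgeR), and Cpr100A and Cpr65Au were at 6.56 ± 3.47 and 35.7 ± 4.18 CPM in TRAP control and at 23.8 ± 5.11 and 49.0 ± 3.61 CPM in PARIS WT. The calls of Acp1 and Cpr49Ae were lost with 1 library left out (adjusted p from 0.0802 to 0.177), apart from that of Acp1 without TRAP control replicate 2 (0.0455). Cys, a cystatin that inhibits cysteine proteases, rose from 22.0 ± 2.04 to 52.7 ± 6.70 CPM (adjusted p = 0.0420), CG5346 from 13.3 ± 0.780 to 36.9 ± 5.26 CPM and CG8736 from 2.21 ± 0.863 to 26.7 ± 5.79 CPM. CG42488 was at 0 counts in TRAP control and 8.87 ± 2.99 CPM in PARIS WT (at least 51.0-fold, adjusted p = 0.0491), but it overlaps CG5116, so reads could be divided between them. The odorant-binding protein Obp99c and the matrix protein Ppn were at 63.5 ± 8.45 and 47.0 ± 0.369 CPM in TRAP control and at 117 ± 7.83 and 78.5 ± 5.44 CPM in PARIS WT, without a call (adjusted p = 0.0632 and 0.0600).

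**Figure D3:**
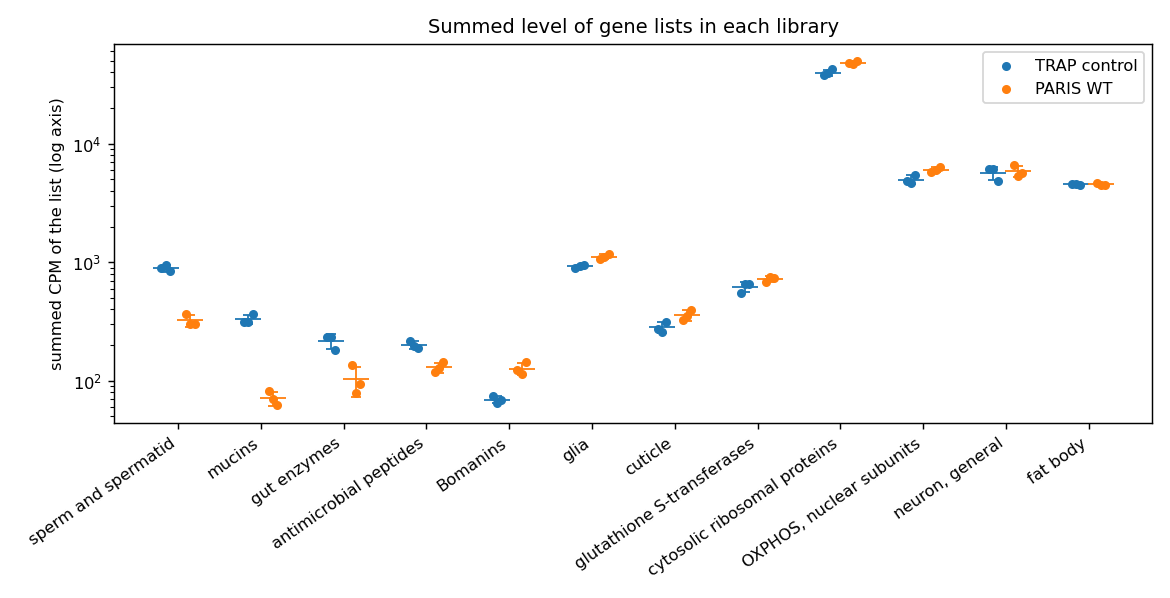
Summed CPM (log axis) of 12 gene lists in each of the 3 TRAP control (blue) and 3 PARIS WT (orange) libraries, with group mean and SD. Sperm genes (here with bol), mucins, gut enzymes and antimicrobial peptides are lower in every PARIS WT library, Bomanins, glia, cuticle and ribosomal protein genes higher, and fat body genes overlap.

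Most cytosolic ribosomal protein genes had small positive values, and the 2 of them that were called fell. Ribosomal protein genes of flies start at a pyrimidine-rich initiator, known as the TCT motif, in place of the usual initiator, and are expressed together at very high levels. Of the 86 cytosolic ribosomal protein genes in the table, 81 were tested and 74 of these had positive values, with a median log2 fold change of 0.40. At an unadjusted p under 0.05, 55 of the 81 were higher and 2 lower, against 4.23% and 7.4% of all genes tested. After adjustment 0 rose and 2 fell (RpL24 and RpL26, both at 0 counts in PARIS WT in this table). The fall of RpL24 depends on the table, as the other one held 9237, 5694 and 11257 counts of it in the same PARIS WT libraries. In 64 of the 81, all PARIS WT libraries lay above all TRAP control libraries, against 9.6% of all genes tested. RpS29, with the smallest p among those with positive values, was at 134, 147 and 145 CPM in TRAP control and at 233, 215 and 227 CPM in PARIS WT (log2 fold change 0.67, SE 0.10, adjusted p = 0.0569, edgeR). RpL36A and RpL37A were at 170 ± 17.1 and 371 ± 51.3 CPM against 279 ± 22.0 and 636 ± 60.9 CPM (adjusted p = 0.0804 and 0.0943). Their sum was 37995, 39174 and 42358 CPM in TRAP control and 47729, 47168 and 49628 CPM in PARIS WT.

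The initiator letters CTTTC or CTTTT, searched on the transcribed strand with their first base from 5 bases before to 5 bases after the annotated start, were found in 42 of the 81 tested ribosomal protein genes (51.9%) and in 305 of 9210 other tested protein-coding genes (3.31%), or 3.73% of all. Of the 42 ribosomal protein genes with the letters, 32 were higher and 1 lower at an unadjusted p under 0.05, and of the 39 without them, 23 and 1. Only ribosomal protein genes with the letters, with positive values and outside the right arm of the second chromosome were considered for printing. The windows of the 4 of them with the smallest p show where the letters lie, which differs between genes. Each has 20 bases before and 10 bases from the start on, with the letters in capitals. The windows come from the RefSeq release 6 genome with starts of the Ensembl annotation. They lie at chr2L:5070980-5071009 (plus strand, RpL37A), chrX:7933722-7933751 (plus strand, RpS14a), chr2L:19009228-19009257 (minus strand, RpL30) and chr4:67198-67227 (minus strand, RpS3A).
RpL37A: atcgagcggcggtcacaCTTTTcgctcttt
RpS14a: tcattttgacagctacgtcaaccttCTTTT
RpL30: tacccatttccgcctgttcttcctCTTTCt
RpS3A: catacgtcgtcaacgtgattcgacCTTTTc
The sperm genes outside that arm with the smallest p hold no such letters there, like most genes outside the ribosomal protein list (chr3L:8617215-8617244 and chr3L:10490841-10490870, both plus strand).
S-Lap1: gaattcagtatccgtgatcgtttcgtagag
S-Lap4: tgcaaagcagcccttgaaatcaacttcggc
The 42 ribosomal protein genes with the letters had a median log2 fold change of 0.43 and the 39 without them one of 0.37, while the 305 other genes with the letters had one of −0.10. RpS14a was at 348, 387 and 389 CPM in TRAP control and 553, 511 and 559 CPM in PARIS WT, RpL30 at 39.0 ± 1.81 and 63.9 ± 7.62 CPM, and RpS3A at 809 ± 31.9 and 1128 ± 106 CPM, each without a call (adjusted p = 0.0987, 0.109 and 0.123). RpS14a has a near-identical copy, RpS14b, with which the counting could share reads.

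Of 50 translation factor genes tested, 30 had positive and 20 negative values, with a median of 0.13 and no call. The elongation factor gene eEF1alpha1 was at 3619 ± 118 CPM in TRAP control and 5234 ± 182 CPM in PARIS WT (log2 fold change 0.53, SE 0.09, adjusted p = 0.0730, edgeR), and the initiation factor gene eIF3g1 at 97.7 ± 5.55 and 179 ± 29.9 CPM (adjusted p = 0.0848). Mitochondrial ribosomal proteins, with 71 tested, had a median of 0.16. The 68 nuclear-encoded OXPHOS subunits tested had a median of 0.33 and none was called. At an unadjusted p under 0.05, 16 were higher and 0 lower, against 4.23% and 7.4% of all genes tested. In 30 of the 68 OXPHOS subunits all PARIS WT libraries lay above all TRAP control libraries, against 9.6% of all genes tested. The ATP synthase gene ATPsynG was at 31.1, 33.5 and 33.0 CPM and at 49.4, 49.4 and 55.8 CPM (adjusted p = 0.109), ATPsynC at 694 ± 3.85 and 869 ± 50.3 CPM and the cytochrome c gene Cyt-c-p at 158 ± 6.94 and 204 ± 12.3 CPM.

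Transcript length moved with these values. Among protein-coding genes above a mean of 10 CPM and outside these 3 lists, the median log2 fold change was 0.43 for 18 genes with transcripts of at most 500 nt, 0.26 for 72 genes up to 700 nt, 0.13 for 229 genes up to 1000 nt and −0.08 for 716 genes over 5000 nt. The ribosomal protein genes above this level had a median length of 688 nt and a median log2 fold change of 0.40, and 148 other genes between their quartiles of length (609 to 859 nt) one of 0.15. For the OXPHOS subunits, of median length 739 nt, the values were 0.32 and, for 260 other genes of 595 to 981 nt, 0.14. For the 10 mitochondrial ribosomal protein genes above this level they were 0.02 and, for 209 other genes of 1138 to 1329 nt, 0.10. The part of transcript length or of library input in these shifts was not tested.

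**Figure D4:**
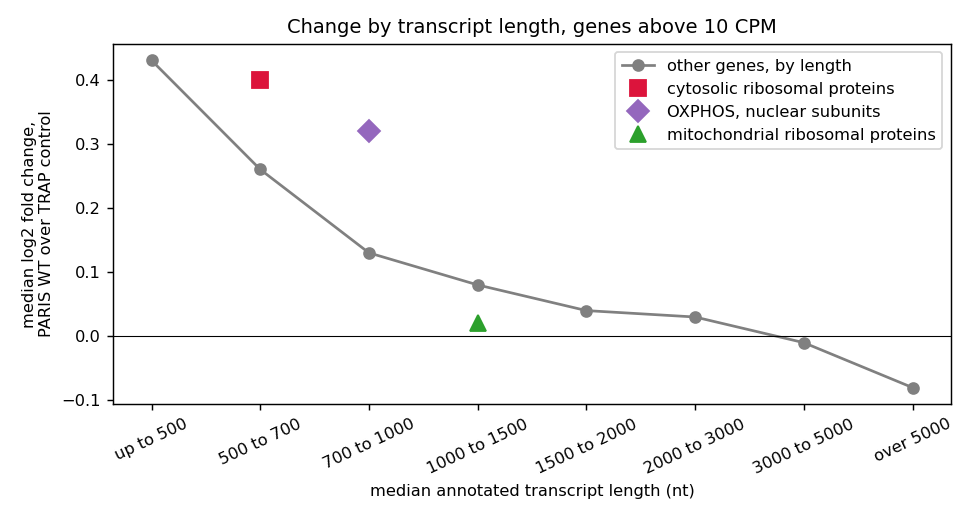
Median log2 fold change (vertical axis) of genes above a mean of 10 CPM by median annotated transcript length in nt (horizontal axis, 8 bins, grey), with cytosolic ribosomal protein genes (red square), OXPHOS subunits (purple diamond) and mitochondrial ribosomal protein genes (green triangle) placed at their median length. The grey line falls from 0.43 to −0.08. Cytosolic ribosomal protein genes and OXPHOS subunits lie above it, and the 10 mitochondrial ribosomal protein genes (median 0.02) lie below it.

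Among the groups below, tied to PARIS, to neurons or to other cells of the head, only GstE1 was called. The general neuron list had a median log2 fold change of 0.08 over 20 genes and the markers of other transmitters one of 0.30 over 9, with no call in either. Of the 9, 8 had positive values and 1 a negative one. In 4 of them all PARIS WT libraries lay above all TRAP control libraries, against 9.6% of all genes tested. The 4 DA neuron markers tested had a median of 0.12, with 3 positive values. The negative one was Vmat, lower in every PARIS WT library. The 8 mitochondrial biogenesis genes tested had a median of 0.04, the 20 genes of the TCA cycle one of −0.04 and the 13 homologues of Parkinson's disease genes one of −0.11, again without a call. Of 20 antioxidant and NRF2 response genes, 3 were higher and 0 lower at an unadjusted p under 0.05 (4.23% and 7.4% of all genes tested), and none passed adjustment. Sod2, the mitochondrial superoxide dismutase, was at 28.8, 24.7 and 25.8 CPM and at 34.2, 37.5 and 42.1 CPM (adjusted p = 0.241) and Prx5, a peroxiredoxin, at 69.6, 64.5 and 94.5 CPM and at 102, 107 and 114 CPM (adjusted p = 0.306). Besides GstE1, 29 glutathione S-transferase genes were tested without a call, among them GstE12 at 169 ± 23.1 and 229 ± 16.2 CPM (adjusted p = 0.255). Without any 1 library GstE1 was not called (adjusted p from 0.104 to 0.177). Photoreceptor and muscle genes, which mark other cells of the head, had medians of −0.03 and 0.12 over 28 and 27 genes, without a call.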

How the data were processed

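TRAP-seq libraries were made with the TruSeq v2 kit (strand not given in the sources used here) and sequenced on a HiSeq 2000. The authors aligned reads with HISAT2 2.1.0, estimated abundance with StringTie 2.0 and derived gene counts with its prepDE script on BDGP6.28. Estimated counts were deposited by the authors as integers, not normalized, and entered the fit unchanged. Entries naming no gene took 0% to 0.0209% of a library and were dropped. Symbols and positions came from Ensembl BDGP6.54, on the same release 6 assembly, which held 17619 of the 17716 identifiers, leaving 97 without a symbol. Human PARIS reads and PARIS C571A libraries were not analysed here.

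Genes were filtered with filterByExpr (minimum count 10, minimum total 15), scaled by TMM and tested with the quasi-likelihood F-test of edgeR 4.0.16 (R 4.3.3). Adjusted p-values are Benjamini-Hochberg values over the genes tested, with 0.05 as threshold. SE is the log2 fold change over the square root of F. The methods describe 3 independent biological samples per group. Depth was 11173874 to 21737687 counts in TRAP control and 8819116 to 24832896 in PARIS WT. Genes with at most 3 counts in every library of a group were given as bounds against 3 counts per library. Alternatives were median-of-ratios factors, CPM without ribosomal, small and mitochondrial RNAs, no filter, a mean of at least 50 counts, DESeq2 1.42.0, a robust fit, a replicate block, genes with equal counts in both tables, and each library left out. Plots used matplotlib 3.10.9 and pandas 2.3.3 in Python 3.11.15.

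The gene lists were written by name, and the members and lists were chosen with earlier results of these data known. After their matches were seen, 4 names were taken out (Acp1 from seminal fluid, Cpn from cuticle, Cyt-b5 from OXPHOS and Notum, matched by a synonym, from sperm). Named genes were taken from all called higher, up to 15 called lower by smallest p and those called lower in a list, up to 4 per list by smallest p and up to 4 by level, and every member of lists of 12 or fewer. Genes of the neighbourhood of GstE1 and of other counts between tables, and rpr, were named after their values were seen.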

Additional observations from a re-analysis of the deposited data

Results flagged for a closer look

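In 5 of the 59 lower genes, the call rests on a count of 0 in each PARIS WT library, while another deposited table, made for PARIS C571A and PARIS WT and outside this comparison, holds counts for the same libraries. The lowest of the 3 counts there was 5694 for RpL24, 759 for Octalpha2R, 520 for Rab2, 62 for CG2247 and 638 for b. The cause of the difference between tables was not tested. Across both tables, 631 of 17691 shared genes had another count in at least 1 PARIS WT library.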

How the results depend on the processing

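The 59 lower and 10 higher genes became 59 and 10 with median-of-ratios factors, 58 and 12 without ribosomal, small and mitochondrial RNAs, 42 and 7 with no filter, 70 and 12 at a mean of at least 50 counts, 63 and 12 in the robust fit and 59 and 11 without genes whose counts differ between tables. DESeq2 called 572 and 167, among them all 59 and 10. With a replicate block, 2 lower and 0 higher genes were called (460 and 321 at an unadjusted p under 0.05). Same-numbered libraries had correlations of deviations of 0.0678, 0.0154 and 0.0186, and differently numbered ones of −0.0374 to 0.0166. Values this small cannot decide whether the numbers pair the samples. With each library left out, 12 to 44 lower and 0 to 8 higher genes were called (0 higher by edgeR when any PARIS WT replicate was omitted, with 269 to 323 higher at an unadjusted p under 0.05). Of the named genes, 42 were called, and none of these changed sign in any alternative. With single libraries omitted, signs turned for ple (−0.45 to 0.81), Pu (−0.04 to 0.25) and mt:ATPase6 (−0.53 to 0.52), none of them called. Of 676 list medians compared, 607 moved by less than the spread between replicates and 69 by more. Chosen after seeing the data, putting back the 4 names gave list medians of −4.06 for sperm, −3.34 for seminal fluid, 0.34 for cuticle and 0.33 for OXPHOS. Over the same fits, the medians ran from −4.14 to −3.93 for sperm, 0.61 to 1.08 for Bomanins and 0.33 to 0.46 for ribosomal protein genes. No gene was called in the 2 least abundant eighths (0.266 to 1.63 and 1.63 to 3.33 CPM, medians −0.72 and −0.16), where 214 and 135 genes were lower and 27 and 8 higher at an unadjusted p under 0.05. The part of depth in this was not tested.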
